A study of Mus musculus with 6 samples.

Results

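Potassium channel genes were taken as all genes on the array whose symbol starts with Kcn. They encode the pore-forming subunits of the voltage-gated, inward rectifier, two-pore and calcium- or sodium-activated channels, and most of their auxiliary subunits. The array holds 181 probes for 98 such genes, among 56605 non-control probes and 27307 gene symbols, and every probe of each gene was used. Of the 98 symbols, 5 name antisense transcripts or a regulator (Kcnd3os, Kcnmb4os1, Kcnmb4os2, Kcnq1ot1 and Kcnrg) and not channel subunits.

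RNA came from the myocardium of male C57BL/6J mice, 3 per group, and each mouse had its own single-colour Agilent array. All 6 mice were Clk4-cKO animals. They carry Clk4 fl/fl alleles and the α-MHC-MerCreMer transgene, in which a cardiomyocyte promoter drives Cre held inactive by estrogen receptor domains, altered so that tamoxifen releases it, so both groups share the deletion of the kinase gene Clk4 in cardiomyocytes. The mice were young, and they received both tamoxifen and an intravenous AAV9 vector with a CMV promoter, which is not restricted to cardiomyocytes. The control group received mouse nexilin in its wild-type form (NEXN-WT), and the other group received NEXN-S437E, in which a glutamate stands in place of a serine to mimic the phosphorylated protein. Since no group with intact Clk4 entered the comparison, each difference below is between these nexilin forms in hearts with the same cardiomyocyte deletion of Clk4.

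Potassium channels carry the outward currents that end the cardiac action potential and hold the resting potential. In the ventricle of the mouse the fast transient outward current (Ito) and the delayed rectifiers IKur and IKslow do most of the repolarisation, IK1 sets the resting potential, IKATP links it to the metabolic state, and IKACh answers acetylcholine, mainly in the atria. IKr and IKs dominate in larger mammals and are small in the adult mouse. Remodelling of failing hearts is known for loss of Ito, IKur and IK1 subunits.

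Each probe is a designed oligonucleotide of 60 bases that binds 1 stretch of a transcript. The 4 below are shown because the results turn on them and because at least 1 forward frame without a stop codon runs along each, so that a reader can see which stretch was read. They are written 5′ to 3′ in the sense of the transcript, with positions on mm9. The capitals mark, in Kcna7, the codons for proline, valine and proline of the last transmembrane segment of Kv1 channels, and, in Kcnip2, the start of a calcium-binding EF-hand loop.
Kcnj3 (A_55_P2159685, chr2:55290214-55290273, plus strand): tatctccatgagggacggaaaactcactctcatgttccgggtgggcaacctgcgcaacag
Kcna7 (A_55_P2090142, chr7:52664902-52664961, plus strand): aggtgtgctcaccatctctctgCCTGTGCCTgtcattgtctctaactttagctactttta
Kcnt2 (A_51_P167979, chr1:142415459-142415518, plus strand): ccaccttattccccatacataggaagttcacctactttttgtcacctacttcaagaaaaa
Kcnip2 (A_51_P237255, chr19:45868494-45868553, minus strand): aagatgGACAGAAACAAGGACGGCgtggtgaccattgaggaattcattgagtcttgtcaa

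Levels are given as the log2 processed signal minus the 75th percentile of the same array, so that 0 is the level of that percentile. A probe was counted as detected where the scanner software marked it well above background, and it was tested where it was detected on all 3 arrays of at least 1 group. Of the 181 Kcn probes, 54 (43 genes) were tested, 45 (37 genes) were detected on all 6 arrays, and 108 were detected on no array. Another 19 were detected on some arrays and were not tested. Among the 45 genes with no detected probe were Kcna4, which carries the slow part of Ito, Kcnab2, Kcne2 and the stretch-sensitive background channel Kcnk2. A further 10 genes were detected on some arrays only, among them the large-conductance calcium-activated channel Kcnma1, with 3 probes each detected on NEXN-WT arrays alone and on no more than 2 of them.

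The arrays came from 1 slide and 1 scan, with 41.9% to 47.8% of spots and 54 to 61 Kcn probes detected on each. All 10 cardiomyocyte markers (such as Myh6, Tnnt2 and Ryr2) were detected on the 6 arrays. The probe for Clk4 read from 1.12 to 1.63 over the arrays and cannot check the labels, since both groups carry the deletion. The array of NEXN-WT replicate 1 stood apart from the other 5. Its 75th percentile was 272.6, against 110.3 to 174.7 on the others, and it held the lowest of the 6 values for 30 of the 45 Kcn probes detected everywhere. The median deviation of those 45 probes from their 6-array means was -0.55 on that array, beside -0.12 for all probes detected on 6 arrays and -0.52 for the cardiomyocyte markers. Many of the values below are therefore also given without it.

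**Figure D1:**
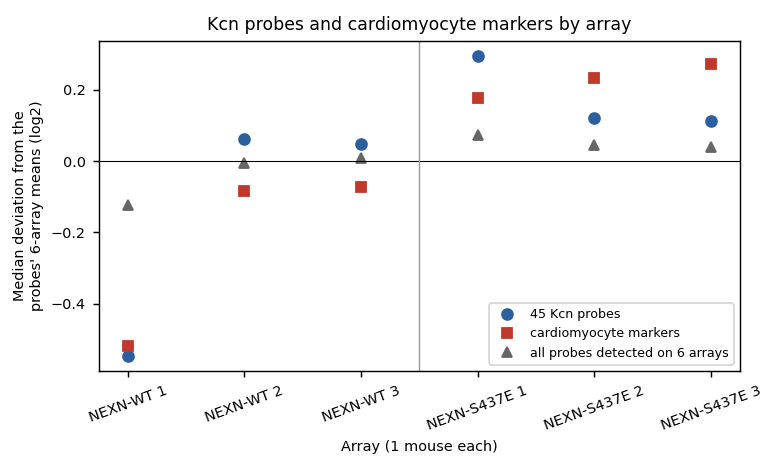
Median deviation (log2) from each probe's mean over the 6 arrays, by array, for the 45 Kcn probes detected on all arrays (circles), the cardiomyocyte markers (squares) and all probes detected on all arrays (triangles). NEXN-WT replicate 1 lies lowest in each series, at -0.55 for the Kcn probes and -0.52 for the markers.

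Most tested potassium channel probes read higher in NEXN-S437E hearts, but by small amounts that did not pass the test. Over the 54 probes, 42 (77.8%) were higher and 12 lower, and the median log2 fold change was 0.33. Among all 22998 tested probes 60.8% were higher and the median was 0.09. Of the 54, 9 entered through detection in 1 group only, and over the 45 detected on all 6 arrays the median was 0.34, beside 0.10 for all such probes. With 1 probe per gene the medians were 0.31 for the 43 Kcn genes and 0.07 for all genes. Without NEXN-WT replicate 1 the Kcn median was 0.08, the median of all probes 0.05, and 34 Kcn probes were higher and 20 lower. In that setting, 63% of the Kcn probes and 58.3% of all tested probes were higher. The Kcn median thus lay much closer to that of all probes without that 1 array.

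No Kcn probe passed a Benjamini-Hochberg adjusted p of 0.05 in limma, where 0.161% of all tested probes did. The smallest adjusted p among them was 0.104. The t-test named in the study's legend likewise gave 0 after adjustment. Limma with estimated array weights called 7 Kcn probes (13%), but it also called 1524 of the 22998 tested probes (6.63%), against 37 without weights. At an unadjusted p under 0.05, 10 Kcn probes (18.5%) were higher and 6 (11.1%) lower, beside 10.5% and 6.7% of all probes. The groups did not overlap for 14 probes that were higher (25.9%) and 5 that were lower (9.26%), beside 18.7% and 9.17% of all probes. The thresholds of the study, a 2-fold change with an unadjusted p under 0.05, were passed by 1 Kcn probe that was higher, for Kcnj3, and 2 that were lower, for Kcnj15 and Kcnt2. Those shares, 1.85% and 3.7%, stood beside 0.735% and 1.78% of all tested probes. The Kcnj3 and Kcnj15 probes were tested only because 1 group detected them on all its arrays. Among the 45 Kcn probes detected on all 6 arrays, 0 were higher and 1 (2.22%), for Kcnt2, was lower by these thresholds, beside 0.493% and 1.14% of all such probes. Without NEXN-WT replicate 1, 7 probes (13%) were higher and 5 (9.26%) lower at an unadjusted p under 0.05, beside 8.01% and 5.83% of all probes. With 3 mice against 3, an exact permutation test of a single probe cannot go below p = 0.1.

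**Figure D2:**
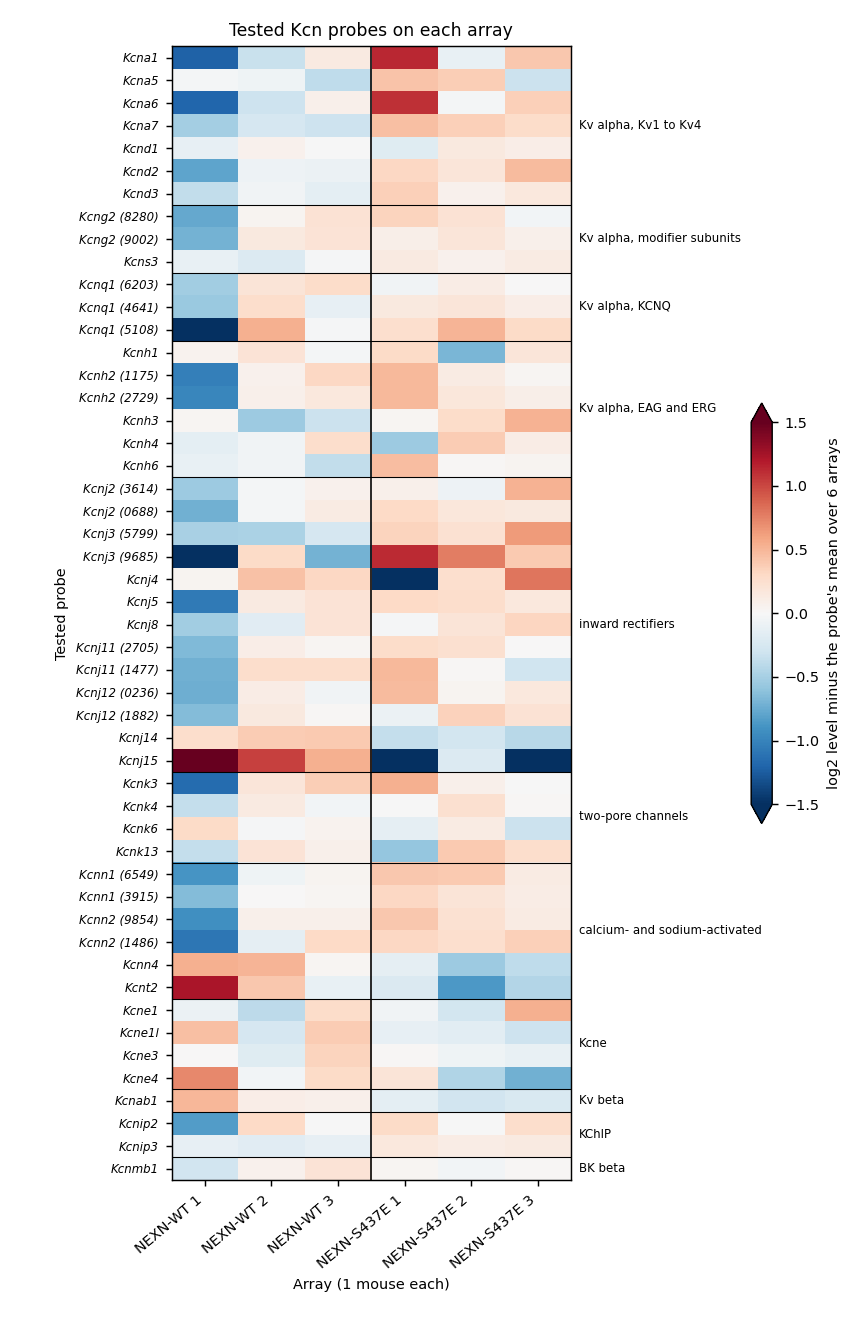
Level of 50 tested Kcn probes on the 6 arrays, as the log2 deviation from the probe's own mean (colour scale, ending at 1.5 in each direction), grouped by subfamily. Digits in brackets are the last ones of the probe name where a gene has several tested probes. The column of NEXN-WT replicate 1 is the lowest for most voltage-gated and inward rectifier probes and the highest for Kcnj15 and Kcnt2.

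The voltage-gated alpha subunits of the Kv1 to Kv4 families read higher over all 6 arrays. All 10 tested probes (9 genes) were higher in NEXN-S437E, from 0.04 to 0.95 with a median of 0.60, 6 of them had an unadjusted p under 0.05, and 4 showed no overlap between the groups, beside 10.5% and 18.7% of all tested probes. Without NEXN-WT replicate 1, 8 were higher and 2 lower, with a median of 0.43, and 3 had an unadjusted p under 0.05, beside 8.01% of all probes. Among the 17 genes of these families, 8 were detected on no array.

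Kcna7, a Kv1 alpha subunit of heart and skeletal muscle, had the steadiest of these differences. It read -0.43, -0.17 and -0.24 in the NEXN-WT hearts and 0.53, 0.43 and 0.35 in the NEXN-S437E hearts. Every NEXN-S437E heart was above every NEXN-WT heart. The log2 fold change was 0.71 ± 0.15 (SE, 3 hearts per group; unadjusted p = 0.00117, adjusted p = 0.1095 in limma), and it was 0.64 without NEXN-WT replicate 1.

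The genes of Ito differed less evenly. Kcnd2 encodes Kv4.2, the main pore of fast Ito in the mouse ventricle, and its probe (chr6:21679569-21679628) read 0.63, 1.35 and 1.33 in NEXN-WT and 1.74, 1.60 and 1.90 in NEXN-S437E. This gave a log2 fold change of 0.64 ± 0.22 (unadjusted p = 0.0198, adjusted p = 0.222 in limma). The groups did not overlap, and the difference was 0.40 without NEXN-WT replicate 1, the lowest of the 6. Kcnd3, which encodes Kv4.3, read 0.09, 0.40 and 0.31 against 0.81, 0.53 and 0.62. It was also higher in each NEXN-S437E heart, by 0.39 ± 0.16 (unadjusted p = 0.0395, adjusted p = 0.267 in limma), and by 0.30 without that array, where the unadjusted p in limma was 0.0741. Kcnip2 encodes KChIP2, the calcium-binding partner that brings Kv4 channels to the membrane and sets the Ito gradient across the ventricular wall. Its levels were -0.45, 0.69 and 0.38 in NEXN-WT and 0.68, 0.38 and 0.65 in NEXN-S437E. Only the first of these values was low, and the log2 fold change of 0.36 ± 0.28 became 0.04 without it. Of the 4 Ito genes, 3 were tested.

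For IKur, the pore and an auxiliary subunit differed in direction. Kcna5, which encodes Kv1.5, read 2.06, 2.02 and 1.71 in NEXN-WT and 2.51, 2.46 and 1.76 in NEXN-S437E, so that the third NEXN-S437E heart lay within the range of NEXN-WT. Its log2 fold change was 0.31 ± 0.23. Kcnab1, a Kv beta subunit that binds Kv1 channels and speeds their inactivation, ran the other way. Its levels were -1.13, -1.52 and -1.54 in NEXN-WT and -1.77, -1.91 and -1.85 in NEXN-S437E. All 3 NEXN-S437E hearts were below all NEXN-WT hearts, with a log2 fold change of -0.45 ± 0.16 (unadjusted p = 0.0259, adjusted p = 0.239 in limma) and of -0.31 without NEXN-WT replicate 1. With normexp background correction it was -0.11.

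The neighbouring genes Kcna1 and Kcna6, named here after their values were seen, had large but uneven differences. Kcna1 read -1.98, -1.10 and -0.63 in NEXN-WT and 0.37, -0.88 and -0.36 in NEXN-S437E. Kcna6 read -2.41, -1.52 and -1.15 against -0.12, -1.25 and -0.85. Both were lowest on NEXN-WT replicate 1 and highest on NEXN-S437E replicate 1, and their groups overlapped. Their log2 fold changes were both 0.95, with unadjusted p of 0.0459 and 0.0354, and were 0.58 and 0.59 without NEXN-WT replicate 1, with unadjusted p of 0.161 and 0.119 in limma. The 2 probes lie 71840 bases apart on chromosome 6, and the longest run of bases that they share is 8. Kcna5, whose probe lies 103891 bases from that of Kcna1, did not follow this profile.

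**Figure D3:**
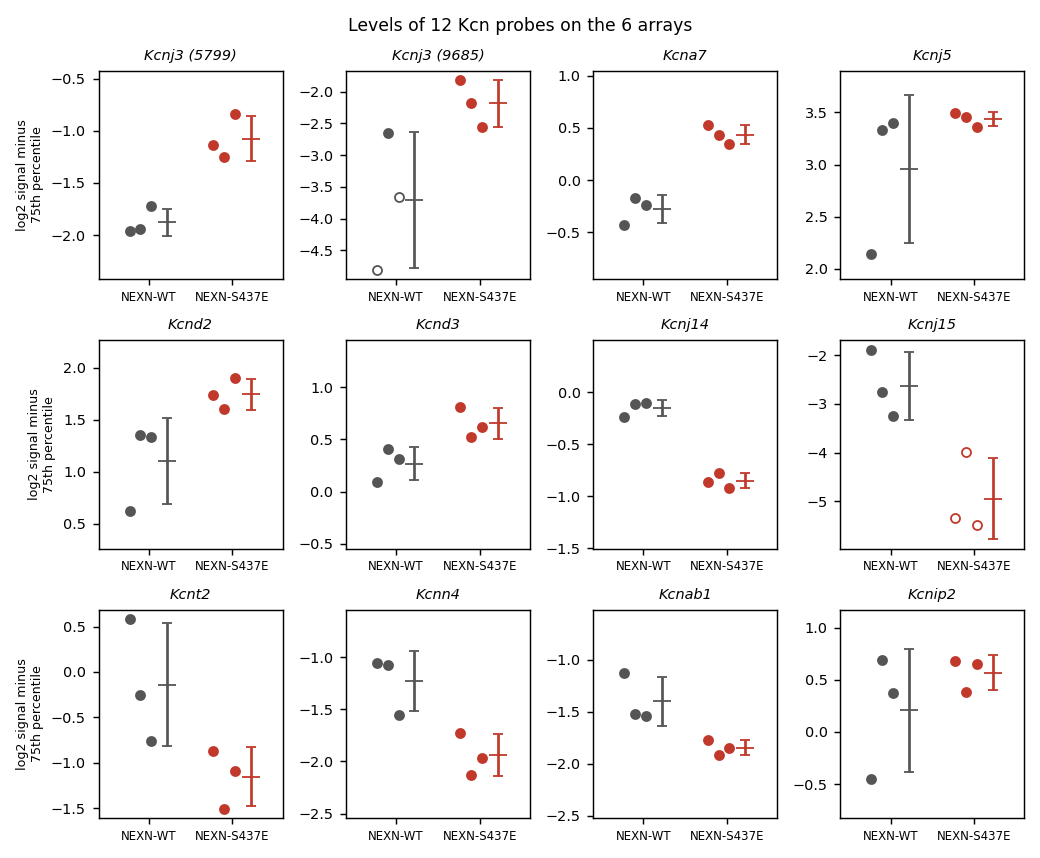
Levels (log2 signal minus the array's 75th percentile) of 12 Kcn probes in the 3 NEXN-WT hearts (grey) and the 3 NEXN-S437E hearts (red), each point 1 mouse, open where the probe was not well above background, with mean ± SD beside. All but Kcnip2 and Kcnj5 show no overlap between the groups, and for Kcnj15 no NEXN-S437E array detected the probe. Each panel has its own level axis.

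The remaining voltage-gated families showed small differences. All 4 KCNQ probes read higher (0.04 to 0.70), none with an unadjusted p under 0.05, and 3 were higher and 1 lower without NEXN-WT replicate 1. The 3 probes of Kcnq1, the pore of IKs, gave 0.04, 0.28 and 0.70 with overlap, and -0.21, 0.07 and 0.09 without that array, the first value being the brightest probe in each case. It and the probe at 0.28 share 51 bases on the genome and are not independent readings. The probe at 0.70 was tested only because all NEXN-S437E arrays detected it, against 2 of NEXN-WT. Kcne1, the auxiliary subunit of IKs, gave 0.13 ± 0.25.

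Kcnh2, the ERG pore of IKr, read -0.09, 0.96 and 1.04 in NEXN-WT and 1.37, 1.05 and 0.97 in NEXN-S437E at its brighter probe. The log2 fold change of 0.50 ± 0.30 was 0.13 without the low first value. Its other probe gave 0.43 with all arrays and 0.02 without NEXN-WT replicate 1. In the EAG and ERG family as a whole 4 probes were higher and 2 lower, and the median of 0.39 was 0.08 without that array. Kcnh3, named after its values were seen, was the one with an unadjusted p under 0.05, at 0.55 ± 0.20 (unadjusted p = 0.0264, adjusted p = 0.24 in limma), with overlap. It was tested only because all NEXN-S437E arrays detected it, against 2 of NEXN-WT, and its unadjusted p was under 0.05 in 2 of the 6 leave-outs. Of the silent modifier subunits, Kcng2 gave 0.34 and 0.23 at its 2 probes, but 0.04 and -0.06 without NEXN-WT replicate 1, and Kcns3 gave 0.21, or 0.22 without it.

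Among the inward rectifiers 10 of 13 probes were higher and 3 lower, or 9 and 4 without NEXN-WT replicate 1. Kcnj3 and Kcnj5 encode GIRK1 and GIRK4, which together form the IKACh channel opened by G protein beta-gamma subunits. Kcnj3 was read by 2 probes that lie 159461 bases apart on chromosome 2. The probe farther along the gene (A_52_P445799, chr2:55449735-55449794) read -1.96, -1.95 and -1.73 in NEXN-WT and -1.14, -1.25 and -0.83 in NEXN-S437E, with no overlap. It gave a log2 fold change of 0.80 ± 0.17 (unadjusted p = 0.00128, adjusted p = 0.111 in limma), or 0.76 without NEXN-WT replicate 1 and 0.50 with normexp background correction. The other probe, A_55_P2159685, whose sequence is shown above, was detected on all NEXN-S437E arrays but on only 1 of NEXN-WT, at -4.80, -2.66 and -3.65 against -1.82, -2.18 and -2.56. Again the groups did not overlap, although the gap between the nearest values was small. Its log2 fold change of 1.52 ± 0.48 (unadjusted p = 0.0135, adjusted p = 0.1997 in limma) passed the study's thresholds, but was 0.97 without NEXN-WT replicate 1, missed the p of 0.05 without NEXN-S437E replicate 1, and was 0.58 with normexp background correction.

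Kcnj5 read 2.14, 3.33 and 3.40 in NEXN-WT and 3.49, 3.46 and 3.36 in NEXN-S437E. The 5 other hearts lay close together above the first, and the log2 fold change of 0.48 ± 0.32 was 0.07 without it. The partner subunits of IKACh thus gave unlike values, with the difference of Kcnj3 present in each heart and that of Kcnj5 resting on 1 array. IKACh is mostly an atrial current, so atrial markers are set beside it. Of 5 atrial cardiomyocyte markers, 2 were tested, Dkk3 and Myl4, and both read lower in NEXN-S437E, at -3.34 and -0.62. The summed linear level of all 5 was 4.29 to 9.05 in NEXN-WT and 2.41 to 3.25 in NEXN-S437E, with Bmp10 detected on no array. The atrial markers thus differed in the direction opposite to Kcnj3, and their part in its difference was not tested.

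The 4 genes of IK1 were split. Kcnj2 encodes Kir2.1, the main pore of this current, and its brighter probe read 1.56, 2.25 and 2.40 in NEXN-WT and 2.58, 2.45 and 2.42 in NEXN-S437E. The groups only just did not overlap, at a log2 fold change of 0.41 ± 0.23, or 0.15 without NEXN-WT replicate 1. Kcnj12, which encodes Kir2.2, gave 0.32 and 0.45 at its 2 probes with overlap, and 0.07 and 0.19 without that array. Kcnj4 was dim and uneven at -0.52 ± 0.59, and turned to 0.27 without NEXN-S437E replicate 1. It was tested only because all NEXN-WT arrays detected it, against 2 of NEXN-S437E.

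Kcnj14, which encodes Kir2.4, differed in the other direction with little spread. Its probe (chr7:53071864-53071923) read -0.24, -0.12 and -0.11 in NEXN-WT and -0.86, -0.78 and -0.92 in NEXN-S437E. The values of each group spanned less than the gap between them. The log2 fold change was -0.70 ± 0.14 (unadjusted p = 0.0009, adjusted p = 0.104 in limma), and -0.74 without NEXN-WT replicate 1 or -0.42 with normexp background correction. This was the smallest adjusted p of the 54 probes. The other probe of Kcnj14 was detected on no array and was not tested.

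Kcnj15, which encodes Kir4.2, a channel known mainly from kidney and other epithelia, was well above background in one group only. The probe (chr16:95518430-95518489) was detected in all NEXN-WT hearts, at -1.88, -2.76 and -3.26, and in none of the NEXN-S437E hearts, at -5.35, -4.00 and -5.50. Because the NEXN-S437E signal was not well above background, only a bound applies, and Kcnj15 was at least 1.56-fold lower. The bound sets the mean of the NEXN-WT arrays against, on each NEXN-S437E array, the lowest signal of any probe well above background or that of the probe, whichever was higher. It did not pass the adjusted p in limma, a test that here used NEXN-S437E signals not well above background. With normexp background correction, the means differed by -0.19 on the log2 scale, which is short of that bound.

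The pores of IKATP, Kcnj8 and Kcnj11, read 0.33 ± 0.21 and 0.35 ± 0.22 higher, both with overlap, and 0.15 and 0.11 without NEXN-WT replicate 1. A dimmer probe of Kcnj11 gave 0.13, which became -0.19 without that array. Their sulfonylurea receptor subunits were among the partner genes. Abcc9, which encodes the SUR2 subunit of the ventricle, read 3.32, 3.76 and 3.67 in NEXN-WT and 4.14, 3.95 and 4.26 in NEXN-S437E. The groups did not overlap, with a log2 fold change of 0.54 ± 0.17 (unadjusted p = 0.0145, adjusted p = 0.206 in limma) and 0.40 without NEXN-WT replicate 1. Abcc8 gave 0.38 ± 0.19 with overlap, and 0.22 without that array.

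**Figure D4:**
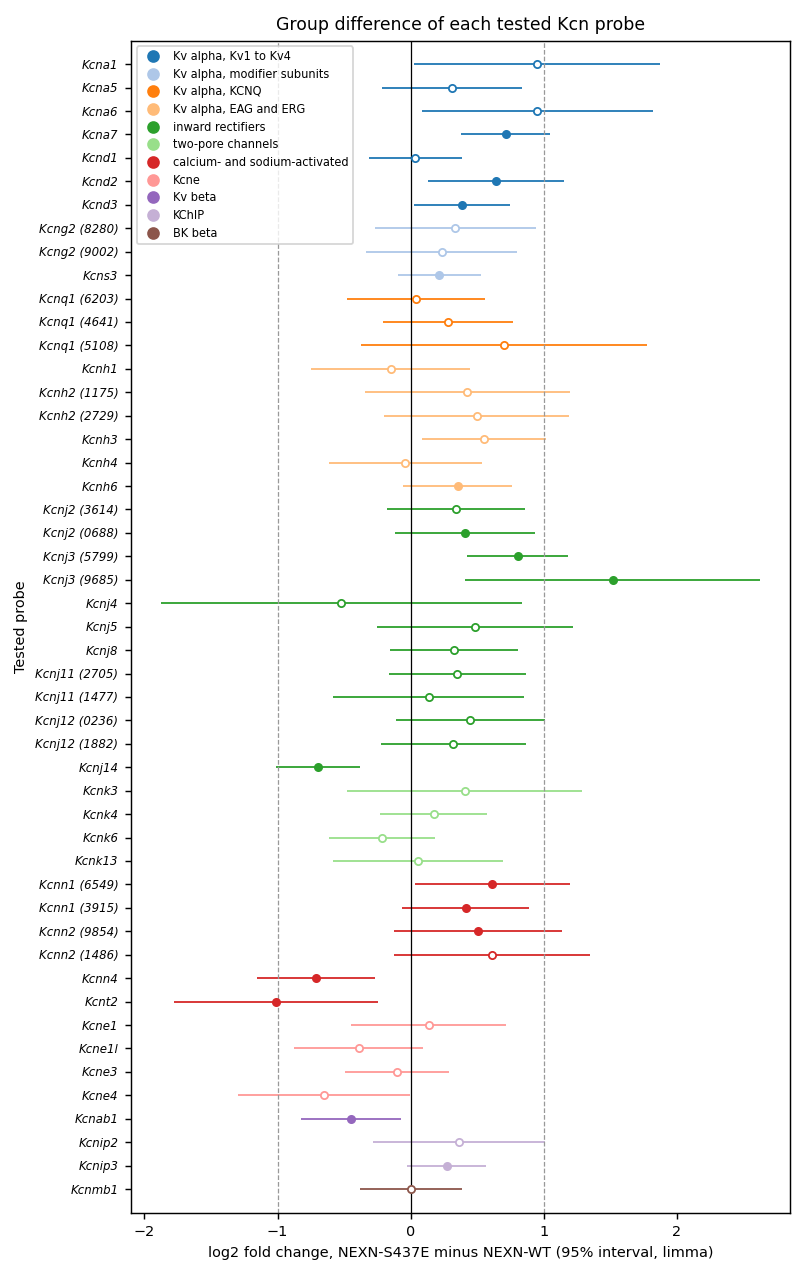
Log2 fold change (NEXN-S437E minus NEXN-WT) of 49 tested Kcn probes, leaving out Kcnj15, which has only a bound, with 95% intervals from limma, coloured by subfamily, filled where the groups did not overlap and open where they did. Dashed lines mark a 2-fold change in each direction; Kcnj3 (A_55_P2159685) and Kcnt2 lie past them.

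Two-pore channels carry background currents, and none of the 4 tested probes had an unadjusted p under 0.05. Kcnk3, which encodes TASK-1, read 3.37, 4.71 and 4.90 in NEXN-WT and 5.06, 4.61 and 4.53 in NEXN-S437E. Its 0.41 ± 0.38 became -0.07 without NEXN-WT replicate 1. Kcnk6 gave -0.21 ± 0.17 with overlap, and -0.12 without that array. Over the 4 tested genes 3 were higher and 1 lower, which turned to 1 higher and 3 lower without NEXN-WT replicate 1.

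Channels opened by calcium or sodium divided into small-conductance channels that read higher and a pair of others that read lower. Kcnn1, which encodes SK1, gave 0.41 ± 0.21 and 0.61 ± 0.25 at its 2 probes, without overlap at either, and 0.19 and 0.32 without NEXN-WT replicate 1. At the brighter probe the levels were 0.23, 0.89 and 0.91 in NEXN-WT and 1.20, 1.07 and 1.00 in NEXN-S437E. Kcnn2, which encodes SK2, gave 0.51 ± 0.27 without overlap at its brighter probe and 0.61 ± 0.32 with overlap at the other. These were 0.18 and 0.22 without that array. The dimmer Kcnn2 probe was tested only because all NEXN-S437E arrays detected it, against 2 of NEXN-WT.

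Kcnn4 encodes the intermediate-conductance channel KCa3.1, known from lymphocytes, macrophages and activated fibroblasts. Its probe (chr7:25170161-25170220) read -1.06, -1.07 and -1.55 in NEXN-WT and -1.72, -2.13 and -1.97 in NEXN-S437E. The groups did not overlap. The log2 fold change was -0.71 ± 0.19 (unadjusted p = 0.00605, adjusted p = 0.161 in limma), and -0.63 without NEXN-WT replicate 1. With normexp background correction it was -0.21, with an adjusted p of 0.363. Another Kcnn4 probe was detected on 2 of the 6 arrays and was not tested.

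Kcnt2, a sodium-activated channel (Slick) described mainly in the nervous system, read 0.58, -0.25 and -0.76 in NEXN-WT and -0.87, -1.51 and -1.09 in NEXN-S437E. All NEXN-S437E values were lower, but the nearest values of the groups lay close together. The log2 fold change of -1.01 ± 0.33 (unadjusted p = 0.0159, adjusted p = 0.212 in limma) just passed the study's thresholds. It was -0.65 without NEXN-WT replicate 1, missed the p of 0.05 without NEXN-S437E replicate 2, and was -0.47 with normexp background correction.

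Markers of other cell types differed between the same hearts. T cell markers were lower for 6 of 7 tested genes, 3 of them past the adjusted p, beside 0.161% of all tested probes. Their summed linear level was 3.09 to 4.55 in NEXN-WT and 1.60 to 1.77 in NEXN-S437E. The median T cell difference was -1.67 (log2), or -1.96 without NEXN-WT replicate 1. Fibroblast markers were lower for 8 of 8, with sums of 556 to 897 against 417 to 451. Their median difference was -0.82, or -0.60 without that array. Macrophage markers were higher for 4 and lower for 3 of 7, with sums of 168 to 224 against 197 to 213. Cardiomyocyte markers were higher for 10 of 10, at a median difference of 0.42 (log2), with sums of 2200 to 2930 against 3459 to 3586. Of all tested probes, 60.8% were higher. An unadjusted p under 0.05 in limma was reached by 5 of the 10, beside 10.5% of all tested probes that were higher at that p. Smooth muscle and pericyte markers were lower for 6 of 7, with overlapping sums of 128 to 175 against 116 to 175. Of 4 B cell markers only Cd79b was tested, and it was lower, while Cd79a and Ms4a1 were detected on no array. Neuron and glia markers were higher for 4 of 5, at a median of 0.22, with sums of 2.90 to 3.80 against 3.75 to 4.05 and Gfap detected on no array. Without NEXN-WT replicate 1, 2 of the 5 were higher and 3 lower. Endothelial markers were higher for 4 and lower for 2 of 6, with sums of 78.2 to 109 against 89.8 to 121, and for 1 and 5 without that array. Between the groups, Kcnn4, Kcnj15 and Kcnt2 differed in the same direction as the T cell, fibroblast and smooth muscle lists and Cd79b, and, over all 6 arrays only, in the opposite direction to the neuron and glia list. The medians of the cardiomyocyte list and of the 54 Kcn probes were 0.42 and 0.33 over all arrays, and 0.32 and 0.08 without NEXN-WT replicate 1. Within NEXN-WT, Kcnj15 and Kcnt2 were highest in replicate 1, where the fibroblast sum was the highest (897) and the T cell sum the lowest (3.09). The part of these lists in the channel differences was not tested. In bulk tissue, fewer cells of a type and less RNA per cell cannot be told apart.

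Auxiliary subunits showed no common direction. Of the 4 tested Kcne probes 1 was higher and 3 lower, and Kcne4, an inhibitory subunit of Kv1 channels named after its values were seen, gave -0.65 ± 0.28 with overlap (unadjusted p = 0.0494, adjusted p = 0.288 in limma). It was tested only because all NEXN-WT arrays detected it, against 2 of NEXN-S437E, and it gave -0.45 (unadjusted p = 0.16 in limma) without NEXN-WT replicate 1 and -0.03 with normexp background correction. Both KChIP probes were higher and the single BK beta probe, for Kcnmb1, gave 0.01, or -0.13 without NEXN-WT replicate 1.

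**Figure D5:**
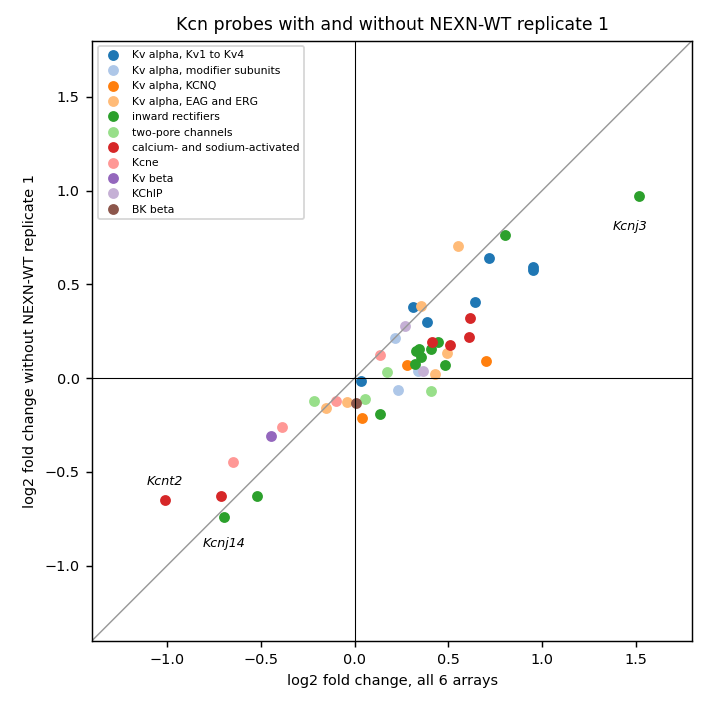
Log2 fold change of 49 tested Kcn probes (all shown before but Kcnj15) from all 6 arrays (horizontal axis) and without NEXN-WT replicate 1 (vertical axis), coloured by subfamily, with the line of equality. Most probes lie closer to 0 on the vertical axis than on the horizontal one, while Kcnj14 is at -0.70 and -0.74.

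Each of the 6 arrays was left out in turn. Of the 45 Kcn probes detected on all 6 arrays, 5 (11.1%) had an unadjusted p under 0.05 in every leave-out, beside 5.92% of the 21110 probes so detected. Among them were those for Kcna7, Kcnj3 (A_52_P445799), Kcnj14 and Kcnn4. Their log2 fold changes ranged over the leave-outs from 0.64 to 0.77 for Kcna7 and from 0.68 to 0.89 for Kcnj3. For the members that were lower, the ranges were -0.74 to -0.66 for Kcnj14 and -0.88 to -0.62 for Kcnn4. By contrast, Kcnip2, Kcnh2, Kcnj2, Kcnj5, Kcnj11, Kcnj12 and Kcnk3 lay between -0.07 and 0.15 at their brighter probe without NEXN-WT replicate 1. They are some of the genes of Ito, IKr, IK1, IKACh, IKATP and background current. Other genes of these currents kept larger differences without that array. These were 0.40 for Kcnd2 and 0.30 for Kcnd3 (Ito), 0.76 for Kcnj3 (IKACh) and -0.74 for Kcnj14 (IK1).

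Of 27 partner genes of these channels, covering receptor and scaffold proteins, pacemaker (HCN) channels, sodium channel subunits and transcription factors that control channel genes, 22 were tested, 19 higher and 3 lower, with a median of 0.21. Without NEXN-WT replicate 1, 16 were higher and 6 lower, with a median of 0.14. At an unadjusted p under 0.05, 3 of the 22 were higher and 1 was lower, beside 10.5% and 6.7% of all tested probes, and none passed the adjusted p in limma. Klf15, a factor that drives Kcnip2 and sets its daily rhythm, read 3.14, 3.56 and 3.43 in NEXN-WT and 4.02, 3.96 and 3.66 in NEXN-S437E, without overlap. Its log2 fold change was 0.50 ± 0.17 (unadjusted p = 0.0211, adjusted p = 0.224 in limma). Irx3, an Iroquois factor of the ventricular conduction system, gave 0.36 ± 0.14. Hcn2 and Lrrc10 gave 0.33 ± 0.17 and 0.26 ± 0.14, likewise without overlap. Without NEXN-WT replicate 1, these differences were 0.38 for Klf15, 0.28 for Irx3, 0.20 for Hcn2 and 0.27 for Lrrc10.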

How the data were processed

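Single-colour arrays of 6 hearts were extracted by the authors with Agilent Feature Extraction 10.7.1.1, which subtracts the background, and the deposited spot values are intensities on a linear scale. The deposited series table also holds log2 values with identical distributions in its 6 columns, normalized by a method not given in the sources used here. Probe positions are on mm9 and genes are named as the array's annotation names them.

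From the processed signals, control and outlier spots were left out, spots of a probe averaged, and the 75th percentile of each array subtracted on the log2 scale. Groups and replicates came from the sample labels. NEXN-S437E was compared with NEXN-WT with limma 3.58.1 (lmFit, eBayes; R 4.3.3) over all 22998 tested probes, with Benjamini-Hochberg adjustment. Functions were tested on simulated data. Precision is limited by 3 arrays per group, and p-values measure the spread between these mice. No block for slide or scan was possible with 1 of each.

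Named probes are those past a call rule, the genes of the named currents, and the 10 largest differences in each direction without overlap and detected on all 6 arrays. A gene is described by its probe of highest mean. Members and lists were chosen with earlier results of these data known. Alternatives were quantile normalization, normexp (offset 50), a percentile over detected probes, the authors' log2 values, other filters on dim probes, outlier spots kept, the t-test of the methods, an intensity trend, array weights, a replicate block, a slide row block, each array left out, a 1.5-fold threshold and 1 probe per gene. Slide row 1 alone was added after the data were seen. A few probes counted in the totals are not reported here one by one.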

Additional observations from a re-analysis of the deposited data

How the results depend on the processing

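The median Kcn difference stayed above 0 under every alternative run. The median of all tested probes did so too, except with the percentile over detected probes (-0.0217). With no filter on dim probes, 80.7% of Kcn probes and 74.1% of all probes were higher. With normexp, these shares were 83.3% and 64.9%. Under all alternatives but array weights, 0 Kcn probes passed the adjusted p. Array weights gave 7 (13%) and called 1524 of all 22998 probes (6.63%), against 37 without weights. The 2-fold and no-overlap counts below are of Kcn probes alone, so they show only how far the counts moved. The counts of probes past the study's 2-fold rule (1 higher, 2 lower) were 0 and 0 with normexp, 6 and 3 with no filter on dim probes, 0 and 1 with the filter on all 6 arrays, 0 and 1 with the t-test, 0 and 1 with array weights, 8 and 5 at 1.5-fold, and 3 higher with the slide row block. Row 2 holds NEXN-S437E arrays alone, so slide row 1 alone (3 NEXN-WT arrays against 1, which is assumed to vary like the others) gives the same fold changes as the block and is no separate check, with 3 higher too. With 1 probe per gene 0 were higher. Probes higher at an unadjusted p under 0.05 (10) numbered 5 with the percentile over detected probes, 22 with no filter and 6 with the t-test. In either direction, these settings called 11, 28 and 10 Kcn probes, beside 3730, 7344 and 3141 of all probes. The probes tested numbered 22998, 56605 and 22998. Kcn probes lower at that p (6) numbered 1 with normexp and 3 with the slide row block. In either direction, each of these called 10 Kcn probes, beside 4064 and 2310 of all 22998. Probes without overlap (14 higher, 5 lower) numbered 2 lower with normexp, 9 higher with the percentile over detected probes, and 46 higher and 8 lower with no filter. The median (0.33) was 0.11 with array weights.

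Over the arrays left out, the 2-fold counts ranged from 0 to 3 higher and 1 to 2 lower, the counts at an unadjusted p from 5 to 12 higher and 3 to 7 lower, and the median from 0.0839 to 0.429. With the replicate number as a block, 6 probes were higher at an unadjusted p. Same-numbered arrays did not deviate together (r = -0.15, -0.03 and -0.18), so the numbers were not taken as pairs.

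Of 37 named probes, 5 changed sign under some alternative, each with an unadjusted p above 0.05 from all 6 arrays. With array weights, Kcnk3 was -0.065, Kcnj4 0.0586, the dimmer Kcnj11 probe -0.337 and the brightest Kcnq1 probe -0.134. With normexp, Kcnj4 was 0.209 and that Kcnq1 probe -0.172. The same Kcnq1 probe was also -0.0123 with quantile normalization, -0.0698 with the percentile over detected probes, -0.0155 with the authors' values and -0.0332 with the slide row block and in row 1 alone. Over the arrays left out, the ranges were -0.0694 to 0.694 for Kcnk3, -0.0965 to 0.307 for Kcne1, -1.05 to 0.265 for Kcnj4, -0.193 to 0.318 for the dimmer Kcnj11 probe and -0.213 to 0.185 for the brightest Kcnq1 probe. With normexp the lower members were closer to 0 (Kcnn4 -0.21, Kcnab1 -0.11, Kcnj14 -0.42). The offset of normexp draws dim probes together by its construction. For the other changes the cause was not tested. Signal over background limits Kcnj15, Kcnj4 and the dimmer Kcnj3 probe.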
